A study of Mus musculus with 8 samples.

Results

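Chromatin accessibility was described around 9 mouse genes that set, copy, remove or protect 5-methylcytosine in DNA: Dnmt1, Dnmt3a, Dnmt3b, Dnmt3l, Uhrf1, Tet1, Tet2, Tet3 and Zfp57. An ATAC-seq peak was taken when its centre lay inside the span of a gene in assembly GRCm38 or within 50 kb of that span, which gave 238 of the 134407 peaks of the series. Of these, 120 had that gene as the nearest protein-coding gene and 118 were nearer to a neighbour, by whose name they are given. A mean value of at least 10 was reached by 231 of the 238 peaks, and the other 7 (2 near Dnmt1, 2 near Dnmt3b, 2 in the surroundings of Dnmt3l and 1 in those of Uhrf1) were not tested. All peaks were 201 bp wide, so that values of different peaks refer to the same length.

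Methylated cytosines in CpG pairs are written de novo by Dnmt3a and Dnmt3b, for which the catalytically inactive Dnmt3l is a cofactor. They are copied after replication by Dnmt1, which Uhrf1 brings to hemimethylated DNA, and they are oxidised by the dioxygenases Tet1, Tet2 and Tet3 on the way to their loss. Zfp57 is a zinc-finger protein that binds methylated imprinting control regions and keeps their methylation. Embryonic stem cells in serum and LIF express most of these genes, and their DNA methylation is known to change with the pluripotent state.

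The cells were wild-type E14, a single mouse embryonic stem cell line, grown without feeders on gelatin in medium with fetal bovine serum and the cytokine LIF. The 4 control libraries came from that medium alone. The 4 libraries called paused came from cells that had the mTOR kinase inhibitor INK128 at 200 nM for 24 h, a treatment used as an in vitro model of embryonic diapause, and the series compares the accessible chromatin of both conditions. Each library was made from 50000 live cells by cutting nuclei with the Tn5 transposase, which inserts adapters where DNA is accessible, and was read as 150 bp pairs. Nothing in the labels says that the 4 libraries of a group came from separate cultures, so that p-values measure the spread between these libraries, which may be technical. In bulk chromatin, fewer cells with an open site and less opening per cell cannot be told apart.

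The deepest library, control replicate 1, had 21161767 reads in peaks and the shallowest, control replicate 3, had 4434037, with a median of 91 reads per peak in the deepest library and of 18 to 29 in the other 7. The deposited value is the number of reads divided by 1 factor per library (here called scaled reads), and 1 read was worth between 0.346 and 1.69 scaled reads. A log2 change is the mean of log2(value + 1) in the paused libraries minus that in the controls, and a peak was called at a Benjamini-Hochberg adjusted p under 0.05 over the 127402 tested peaks (limma-trend). The median change of all tested peaks was 0.10 on this scale and -0.01 after TMM rescaling, which assumes that most peaks do not change, so that changes are also given relative to this median where they are small. Of 7 embryonic stem cell genes used as markers, 5 had a peak within 1 kb of a start site, with group means of 114 to 273 scaled reads, and their summed accessibility was 8424 to 8841 in the controls and 9498 to 10856 in the paused libraries. The start sites of Pou5f1 and Klf4 had no such peak. Fibroblast or feeder genes had start-site peaks of 19.7 to 68.9 scaled reads at Col1a2, Twist1 and Prrx1, and 5 such genes summed to 1315 to 1533 in the controls and 1438 to 1510 in the paused libraries. Col1a1, Thy1 and the endoderm genes were not among the start sites used, so that their start sites were not checked. Endoderm genes summed to 1445 to 1630 and 1541 to 1775, and neural genes, of which 0 of 3 had a start-site peak, to 1836 to 2044 and 2080 to 2293. The part of other cell types in the results below was not tested.

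The start sites of the 9 genes differ in sequence. The 250 bases before a start site are shown for the 3 genes whose start-site peak was called in the comparison described below and, for contrast, for 2 whose peak was not, from RefSeq's annotation of GRCm38.p6 on the strand of the gene. All 9 genes were matched in that table. Dnmt3l and Zfp57 have 3 start sites there and Uhrf1 has 2, and the window shown is that of the start site nearest to the peak. Capitals mark a match, on either strand, to 1 of 7 motifs searched: the GC box GGGCGG bound by Sp and Klf factors, the CCAAT box, the E-box CACGTG, the Ets motif CCGGAAG, the E2F motif TTTGGCGC, the octamer ATGCAAAT and the TATA motif TATAAA, none of which contains another.
Uhrf1, chr17:56304063-56304312, plus strand, called: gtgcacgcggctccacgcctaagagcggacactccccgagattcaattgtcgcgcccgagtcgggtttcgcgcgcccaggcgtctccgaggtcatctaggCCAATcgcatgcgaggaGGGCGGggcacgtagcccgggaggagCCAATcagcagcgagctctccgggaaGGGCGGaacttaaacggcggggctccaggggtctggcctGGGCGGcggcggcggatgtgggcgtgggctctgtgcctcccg
Zfp57, chr17:37002275-37002524, plus strand, called: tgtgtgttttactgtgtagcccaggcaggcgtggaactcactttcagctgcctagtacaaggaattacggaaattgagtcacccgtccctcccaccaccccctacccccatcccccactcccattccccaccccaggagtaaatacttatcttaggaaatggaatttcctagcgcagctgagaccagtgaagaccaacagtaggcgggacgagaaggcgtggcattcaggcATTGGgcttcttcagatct
Dnmt3l, chr10:78055085-78055334, plus strand, called: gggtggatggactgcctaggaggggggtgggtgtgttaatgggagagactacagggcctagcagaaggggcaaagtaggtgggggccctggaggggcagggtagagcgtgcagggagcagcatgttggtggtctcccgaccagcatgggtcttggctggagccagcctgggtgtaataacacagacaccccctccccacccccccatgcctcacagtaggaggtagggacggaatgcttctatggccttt
Tet1, chr10:62887325-62887574, minus strand, not called: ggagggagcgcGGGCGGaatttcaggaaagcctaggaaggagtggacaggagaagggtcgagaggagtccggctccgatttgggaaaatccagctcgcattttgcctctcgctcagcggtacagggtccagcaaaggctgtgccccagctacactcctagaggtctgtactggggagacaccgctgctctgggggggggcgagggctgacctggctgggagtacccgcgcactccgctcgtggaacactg
Tet3, chr6:83441679-83441928, minus strand, not called: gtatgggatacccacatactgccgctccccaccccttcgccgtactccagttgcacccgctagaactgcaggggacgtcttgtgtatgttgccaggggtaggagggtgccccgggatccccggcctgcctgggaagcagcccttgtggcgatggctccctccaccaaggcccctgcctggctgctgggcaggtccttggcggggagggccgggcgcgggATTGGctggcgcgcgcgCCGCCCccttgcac

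The 3 called start sites had little in common. The Uhrf1 window held 30 CpG pairs, 3 GC boxes and 2 CCAAT boxes, and all 201 bases of the peak lay within it. The Zfp57 window held 7 CpG pairs and 1 CCAAT box on the opposite strand, and took in 83 bases of its peak. The Dnmt3l window held 3 CpG pairs and none of the 7 motifs, and the peak began just after it. Windows of other start sites, not shown, differed: another of Dnmt3l held 2 GC boxes and 1 E-box, and another of Zfp57 held 1 TATA motif. Among the windows not called, Tet1 had 15 CpG pairs and 1 GC box and Tet3 had 17 CpG pairs, 1 GC box and 1 CCAAT box, while the Tet2 window, not shown, held 51 CpG pairs. The median over all 32841 windows of this length was 6 CpG pairs, 32.7% of them held a GC box and 33.9% a CCAAT box. No window of the 9 genes matched the Ets, E2F or octamer motifs, which occur in 6.91%, 0.417% and 1.6% of all windows. The E-box, found in 6.02% of windows, and the TATA motif, found in 12.4%, were absent from the 5 windows shown.

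Of the 231 tested peaks around the 9 genes, 25 were called higher and 3 lower in the paused libraries, which is 12.1%. Of all tested peaks 13.9% were called, 11.0% higher and 2.91% lower, so that the share called around these genes was near the background. Their median log2 change was 0.09 against 0.10 over all tested peaks, and both turned to slightly below 0 (-0.02 and -0.01) after TMM rescaling. All 4 paused values lay above all 4 control values at 34 of the 231 peaks and below them at 10, against 13.0% and 4.36% of all tested peaks. Among the 116 tested peaks nearest to the 9 genes, 14 were called higher and 2 lower (13.8%), with a median of 0.12. Among the 115 nearer to a neighbour, 11 were called higher and 1 lower (10.4%), with a median of 0.06. An unadjusted p under 0.05 was reached by 63 of the 231 peaks. The number called higher varied with the libraries used, as did the share of all tested peaks. It was 15 without control replicate 3 (8.47% of all tested peaks) and 12 without paused replicate 4 (7.05%). The 3 lower calls fell to 0 without control replicate 1, 3 or 4 or paused replicate 1. In those fits 1.82% to 2.45% of all tested peaks were called lower. Without paused replicate 4 there was 1 lower call (2.03%).

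Of the 64 tested peaks nearest to Tet1, Tet2 or Tet3, 8 were called higher and 1 lower, near the background of 11.0% and 2.91% of all tested peaks. The number called higher was 5 by edgeR with TMM, 4 after TMM rescaling, 4 after the loess correction and 3 by DESeq2. It was 5 without paused replicate 2 (8.12% of all tested peaks) and 4 without paused replicate 4 (7.05%). Their median log2 change was 0.18, or 0.08 after TMM rescaling. Of the 47 nearest to the 4 Dnmt genes, 4 were called higher and 1 lower, and their median was -0.05, which was -0.15 after TMM rescaling and between -0.07 (without paused replicate 3) and 0.04 (without paused replicate 2) with 1 library left out. Their higher and lower calls numbered 3 and 5 by edgeR with TMM, 3 and 2 after TMM rescaling, 2 and 3 after the loess correction and 1 and 0 by DESeq2. Of all tested peaks, edgeR with TMM called 7.13% higher and 5.54% lower, and TMM rescaling 5.75% and 4.24%. The loess correction called 5.11% and 3.48% of them, and DESeq2 3.06% and 1.49%. The difference between the families was not tested. Uhrf1 and Zfp57 together had 5 tested peaks, of which 2 were called, both higher, and their median was -0.13. Of the 4 peaks of Uhrf1, 1 had a change above 0, and their median was -0.21. Of all 127402 tested peaks, 78038 had a change above 0. The plot of changes along each gene shows where these peaks lie.

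**Figure D1:**
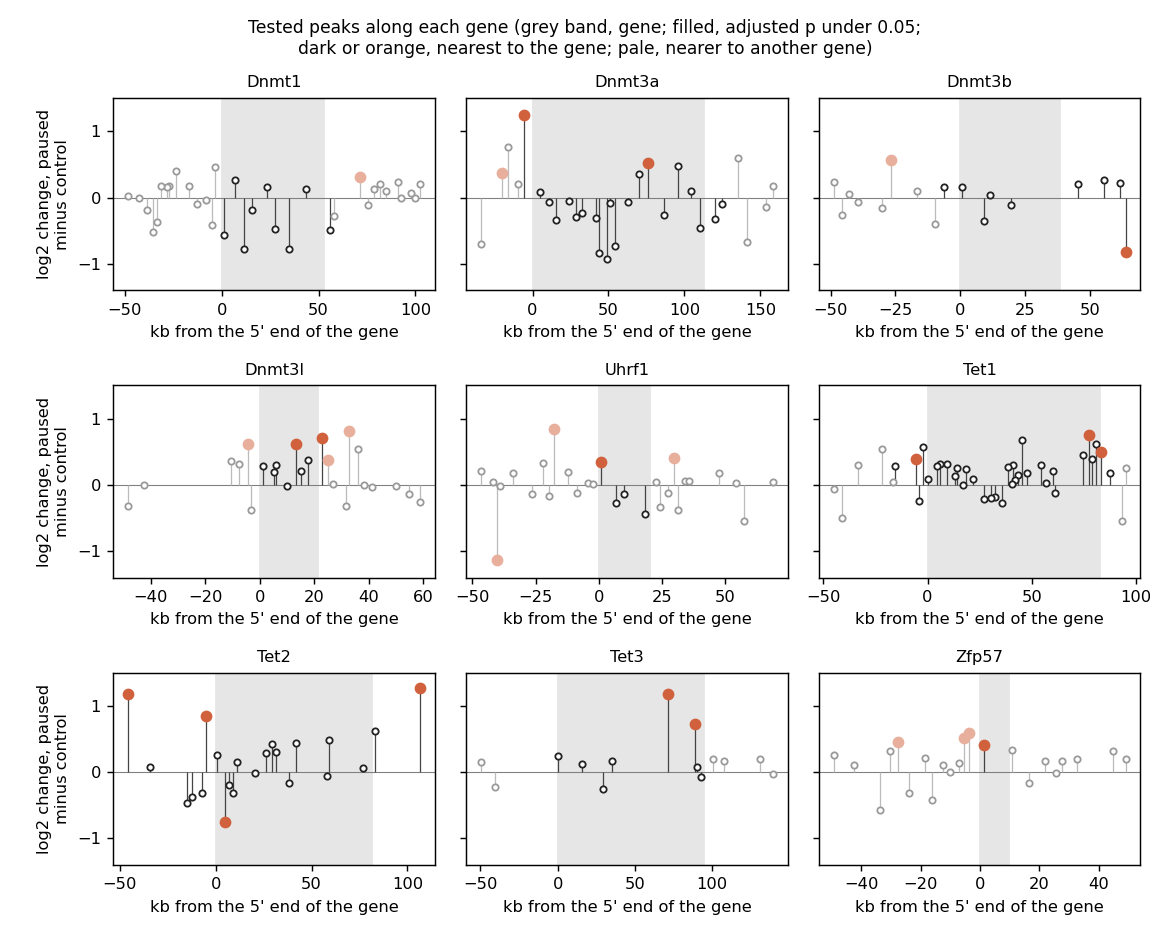
Log2 change (paused minus control) of the tested peaks along each of the 9 genes, by distance in kb from the 5' end of the gene, with the gene as a grey band. Filled points passed an adjusted p of 0.05, dark stems are peaks nearest to the gene and pale ones peaks nearer to a neighbour: the largest called rises lie outside the bodies of Dnmt3a and Tet2 and within that of Tet3.

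At the start sites, a peak within 1 kb was present for each of the 9 genes and its level differed several-fold between them. In the controls the order was Uhrf1 (360 ± 21.1 scaled reads, SD, n = 4), Tet3 (275 ± 25.8), Dnmt1 (223 ± 16.8), Tet2 (215 ± 26.5), Zfp57 (212 ± 23.0), Tet1 (208 ± 33.2), Dnmt3b (149 ± 14.5), Dnmt3a (83.2 ± 9.34) and Dnmt3l (64.8 ± 14.3). Dnmt1, Tet2, Zfp57 and Tet1 differed by less than their spread, and the libraries of Tet3 overlapped with those of Dnmt1, as did those of Dnmt3a with those of Dnmt3l. Uhrf1 stood above Tet3, and Dnmt3b below Tet1, in each control library. Of the 9 peaks, 3 were called, all higher in the paused libraries: Dnmt3l, Uhrf1 and Zfp57. The start sites used do not cover every gene. The background for peaks within 1 kb of any of these start sites was 12.3% called of 13903 tested, 11.3% higher and 1.06% lower. The 9 changes had a median of 0.26 against 0.18 for all such peaks. Each was above 0, as were 11482 of the 13903. However, those of Dnmt3a and Tet1 turned below 0 after TMM rescaling and those of Dnmt3a, Dnmt3b, Tet1 and Tet3 after a loess correction on peak strength.

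**Figure D2:**
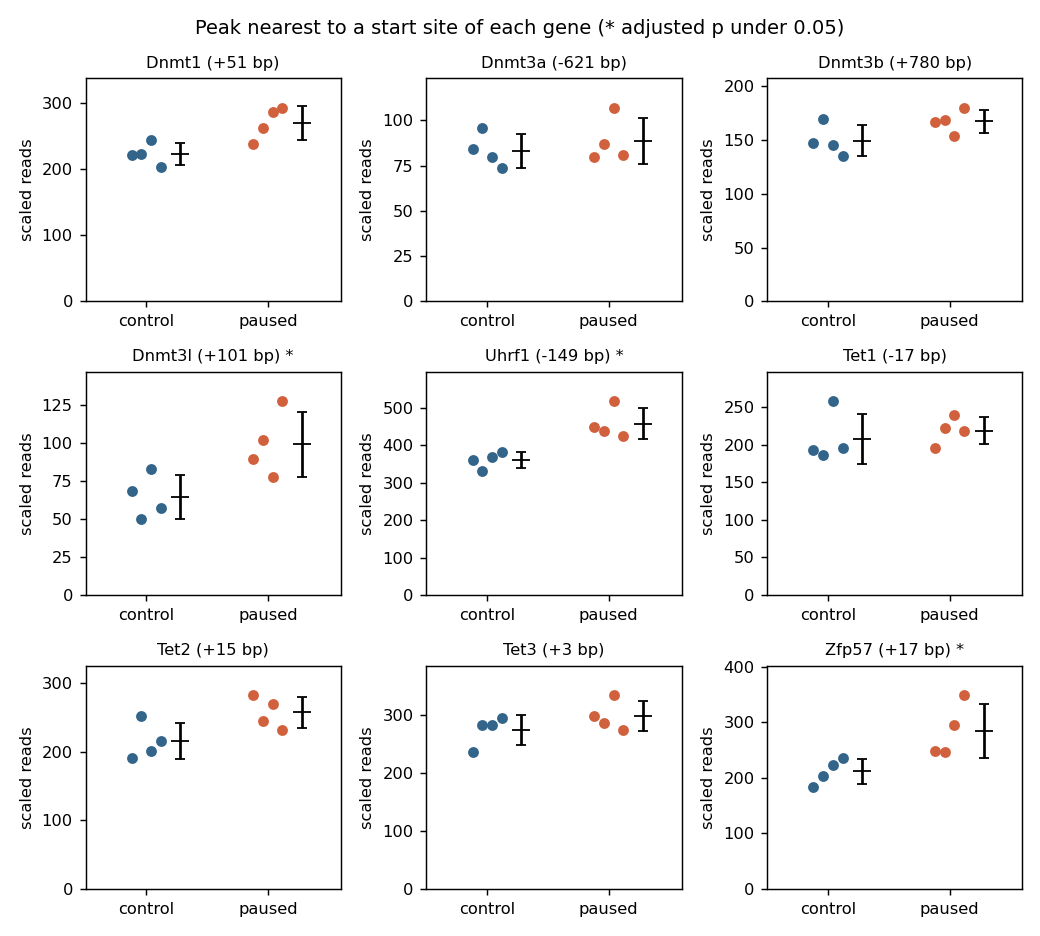
Scaled reads of the peak nearest to a start site of each gene in the 4 control and 4 paused libraries, with the mean and SD beside the points, each axis starting at 0. The paused libraries of Uhrf1 and Zfp57 lie above all of their controls, those of Dnmt3l are higher on average with overlap, and asterisks mark the 3 peaks with an adjusted p under 0.05.

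Dnmt1, the maintenance methyltransferase, spans chr9:20907206-20959888 on the minus strand and had 11 nearest peaks, of which 9 were tested. None of the 9 was called by limma-trend on the deposited scaling or by DESeq2, and 4 had an unadjusted p under 0.05. On other settings some were called: edgeR with TMM on the recovered reads called 2 lower, against 5.54% of all tested peaks, and limma-trend called 1 lower after TMM rescaling (against 4.24%), after the loess correction (3.48%) and without paused replicate 3 (3.04%) or paused replicate 4 (2.03%). With a replicate block 1 was called higher and 1 lower, against 13.6% and 3.63%, and without a filter on low values 1 of the 11 was called lower, against 2.86%. The peak nearest to a start site (chr9:20952828-20953028, centre 51 bp after it) was also the strongest. It read 222, 222, 244 and 203 scaled reads in control replicates 1 to 4 and 238, 262, 285 and 293 in the paused libraries. The groups overlapped in 1 pair of libraries, the highest control and the lowest paused. The change was 0.27 ± 0.11 (log2, SE) with an adjusted p of 0.0881, which missed the threshold. Of all 127402 tested peaks, 78038 had a change above 0. Of the 8 tested peaks of Dnmt1 besides the start-site peak, 6 had a change below 0 and 2 above, and none of these passed the test. The lowest change was at chr9:20924962-20925162, a weak peak inside the gene that had 20.2 ± 5.90 scaled reads in the controls and 11.9 ± 5.31 in the paused libraries (-0.77 ± 0.32, adjusted p = 0.102). The median over the 9 peaks was -0.48, and it stayed below 0 after TMM rescaling (-0.58) and after the loess correction (-0.45).

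Uhrf1, the protein that recruits Dnmt1 to newly replicated DNA, spans chr17:56303337-56323486 on the plus strand and had 4 nearest peaks. Its start-site peak, chr17:56304064-56304264, is the one that lies wholly within the window printed above. Control values were 360, 331, 367 and 381 scaled reads, and paused values were 449, 437, 517 and 424. Every paused library was above every control, and paused replicate 3 stood apart at the top. The rise was 1.27-fold, 0.34 ± 0.10 on the log2 scale (95% interval 0.14 to 0.54) with an adjusted p of 0.0189, or 0.24 above the median change of all peaks. Without paused replicate 3 it was 0.28 with an adjusted p of 0.0688. The call was also lost by edgeR with TMM (0.24), after TMM rescaling (0.23), by DESeq2 (0.24) and after the loess correction (0.13, adjusted p = 0.341). The other 3 peaks were weak, and the one with the largest fall, chr17:56321655-56321855, had 28.1 ± 2.52 scaled reads in the controls and 20.8 ± 5.41 in the paused libraries, with an adjusted p of 0.211.

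Dnmt3a, a de novo methyltransferase, spans chr12:3801559-3914443 on the plus strand and had 21 nearest peaks, all tested. Its 2 called peaks rose, against 11.0% of all tested peaks called higher. Of the 21 changes 6 lay above 0 and 15 below, while 78038 of all 127402 tested peaks had a change above 0. This difference was not tested. Inside the gene, chr12:3877375-3877575 read 72.9, 56.1, 62.7 and 57.3 scaled reads in the controls and 80.8, 93.1, 93.1 and 90.2 in the paused libraries. The groups did not overlap, and the change was 0.52 ± 0.14 (adjusted p = 0.0129); the peak was called in each of the 8 fits that left out 1 library. The call was lost by edgeR with TMM (0.35, adjusted p = 0.0932), by DESeq2 (0.37, 0.252), after TMM rescaling (0.41, 0.0574) and after the loess correction (0.35, 0.130). A weak peak 5774 bp before the gene, chr12:3795685-3795885, went from 12.1, 10.8, 3.39 and 7.35 to 34.6, 12.6, 18.6 and 17.6. The 3.39 of control replicate 3 stands for a pair of reads at its depth, and the 34.6 of paused replicate 1 was the highest value by far. The change was 1.24 ± 0.36 (adjusted p = 0.0174), but the call was lost without control replicate 3 (0.92, adjusted p = 0.0744) and without paused replicate 1 (0.98, adjusted p = 0.110), and by DESeq2 (adjusted p = 0.115).

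The other Dnmt3a peaks named by rule did not pass the test. Nearest to a start site was chr12:3806259-3806459 (centre at -621 bp), with 83.2 ± 9.34 scaled reads in the controls and 88.6 ± 12.7 in the paused libraries and an adjusted p of 0.736. The strongest, chr12:3825795-3825995, had 119 ± 14.6 and 114 ± 5.24 scaled reads, with an adjusted p of 0.849. At the peak with the largest fall, chr12:3850417-3850617, the paused values of 10.4, 6.31, 9.31 and 5.86 all lay below the control values of 12.1, 15.5, 22.0 and 14.7. Its change was -0.93 ± 0.35 with an adjusted p of 0.0640. That peak lies nearest to the start of the antisense transcript Dnmt3aos, 11727 bp away.

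Dnmt3b, the other de novo enzyme, spans chr2:153649411-153687730 on the plus strand and had 11 nearest peaks, 9 of them tested. Against 11.0% called higher and 2.91% lower of all tested peaks, 1 was called, lower. This weak peak, chr2:153713110-153713310, 25480 bp past the gene, had 21.8, 16.7, 27.1 and 22.0 scaled reads in the controls and 11.5, 11.0, 10.9 and 14.1 in the paused libraries. The groups did not overlap, and the change was -0.82 ± 0.28 with an adjusted p of 0.0457. That call lay at the threshold: it was kept in 1 of the 8 fits that left out 1 library, where the adjusted p reached 0.136 (without control replicate 3, change -0.71). DESeq2 (adjusted p = 0.111) and the loess correction (adjusted p = 0.0877) also ended it. The start-site peak, chr2:153650129-153650329, had 149 ± 14.5 and 168 ± 11.0 scaled reads (adjusted p = 0.361), and the strongest, chr2:153643129-153643329, 6182 bp before the gene, had 184 ± 23.6 and 205 ± 20.8 (adjusted p = 0.381). The largest positive change, at chr2:153704806-153705006, was 0.27 with a 95% interval of -0.41 to 0.94.

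Dnmt3l, the cofactor of both de novo enzymes, spans chr10:78042287-78063622 on the plus strand and had 8 nearest peaks. Of these, 2 were called higher and 7 had a change above 0. Of all 127402 tested peaks, 11.0% were called higher and 78038 had a change above 0. The stronger rise was at chr10:78065030-78065230, 1508 bp past the 3' end of the gene. Its control values were 77.1, 72.9, 74.5 and 66.1 scaled reads and its paused values 128, 117, 106 and 127. The highest control lay well below the lowest paused library. The rise was 1.64-fold, 0.70 ± 0.13 (95% interval 0.43 to 0.97, adjusted p = 0.000361), and the peak was called under each of the 17 alternatives tried, with adjusted p from 7.3e-05 to 0.0113.

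At the start site of Dnmt3l, chr10:78055336-78055536 (centre 101 bp after it), the controls read 68.8, 50.2, 83.0 and 57.3 scaled reads and the paused libraries 89.98, 103, 77.6 and 128. Paused replicate 3 lay below control replicate 3, so that the groups overlapped. The change was 0.61 ± 0.16 with an adjusted p of 0.0083, and without paused replicate 4 it was 0.48 with an adjusted p of 0.0683. The call was also lost by DESeq2 (0.52, adjusted p = 0.0948) and after the loess correction (0.43, adjusted p = 0.0841). The strongest peak within the span, chr10:78043448-78043648, also lies inside Aire, 62 bp from an Aire start site. There the paused libraries (258, 243, 268 and 214) were all above the controls (203, 193, 196 and 212), with a change of 0.29 ± 0.11 that missed the threshold (adjusted p = 0.0751). The lowest change among the 8, at chr10:78052040-78052240, was -0.02 (23.0 ± 1.57 and 23.0 ± 4.63 scaled reads, 95% interval -0.50 to 0.46).

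Tet1, the dioxygenase most closely tied to pluripotent cells, spans chr10:62804570-62887469 on the minus strand and had 34 nearest peaks, the most of the 9 genes. Of these, 3 were called higher and none lower, against 11.0% and 2.91% of all tested peaks. Its start-site peak, chr10:62887241-62887441 (centre at -17 bp), read 192, 186, 257 and 195 scaled reads in the controls and 195, 222, 239 and 218 in the paused libraries. Control replicate 3 was above every paused library, and the other 3 controls lay near or below the lowest of them. The change of 0.08 ± 0.12 did not pass the test (adjusted p = 0.691), and without control replicate 3 it was 0.19, also not called.

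The 3 called peaks of Tet1 lie toward both ends of the gene. A peak 5496 bp before it, chr10:62892865-62893065, had 134, 180, 129 and 157 scaled reads in the controls and 195, 215, 163 and 217 in the paused libraries, with overlap between the groups (0.39 ± 0.13, adjusted p = 0.0289). Just past the 3' end, 315 bp away, chr10:62804155-62804355 went from 57.4, 59.7, 62.7 and 52.9 to 83.1, 72.6, 83.8 and 91.4. That peak did not overlap between groups (0.50 ± 0.15, adjusted p = 0.0185). A weak peak inside the gene, chr10:62809987-62810187, had 15.1 ± 2.75 scaled reads in the controls and 26.2 ± 4.61 in the paused libraries, again without overlap (0.76 ± 0.26, adjusted p = 0.0429). Leaving out 1 library ended the first of these calls in 5 of 8 fits (adjusted p up to 0.111, without paused replicate 4), the next in 2 (up to 0.0724, without paused replicate 4) and the last in 6 (up to 0.123, without paused replicate 2). All 3 calls were lost after TMM rescaling (adjusted p of 0.135, 0.0783 and 0.0978 in the same order), after the loess correction (0.344, 0.164 and 0.0565) and by DESeq2 (0.248, 0.197 and 0.238), and edgeR with TMM kept the one past the 3' end. The largest fall, at chr10:62851570-62851770, from 51.5 ± 5.30 to 42.7 ± 9.17 scaled reads, had an adjusted p of 0.30.

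Tet2, a dioxygenase that lacks the CXXC domain found in Tet1 and Tet3, spans chr3:133463677-133545136 on the minus strand and stood alone, with all 22 peaks within 50 kb nearest to it. Of these, 3 were called higher and 1 lower, against 11.0% and 2.91% of all tested peaks. The 3 rises included the largest among the 231 tested peaks, which was at a weak peak, and all 3 lay outside the gene. At chr3:133590800-133591000, 45764 bp before the gene, the controls read 22.1, 32.3, 13.6 and 23.5 scaled reads and the paused libraries 47.3, 36.3, 62.1 and 63.3. The groups did not overlap, and the paused mean was 2.28 times that of the controls (1.18 ± 0.23, 95% interval 0.73 to 1.64, adjusted p = 0.000388). At chr3:133438278-133438478, a weak peak (mean 16.0 scaled reads) 25299 bp past the gene, values went from 6.22, 10.8, 8.47 and 10.3 to 20.8, 17.4, 21.7 and 32.8. Every paused value was above every control (1.27 ± 0.31, adjusted p = 0.0045). At chr3:133549927-133550127, 4891 bp before the gene, they went from 25.2, 33.4, 25.4 and 20.6 to 47.3, 55.2, 35.7 and 52.7 (0.84 ± 0.20, adjusted p = 0.0040). These 3 were called in each of the fits that left out 1 library, and the first and second under each of the 16 alternatives, with adjusted p up to 0.0056 and 0.0428. The third was not called by DESeq2 (adjusted p = 0.0534).

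Close to the Tet2 start the picture was mixed. The peak on the start site, chr3:133544275-133544475 (centre 15 bp after it), had 192, 252, 202 and 216 scaled reads in the controls and 283, 244, 270 and 232 in the paused libraries. Control replicate 2 exceeded 2 of the paused libraries, and the change of 0.26 ± 0.11 had an adjusted p of 0.118. A weak peak 4168 bp into the gene, chr3:133540122-133540322, was called lower, from 31.1, 21.5, 32.2 and 32.3 to 12.7, 18.9, 21.7 and 15.2 (-0.75 ± 0.25, adjusted p = 0.0378). Paused replicate 3 was level with control replicate 2, and the call was lost in 5 of the 8 fits that left out 1 library (adjusted p up to 0.107, without control replicate 1) and by DESeq2 (0.0726). Without control replicate 2, whose value stood apart from the other controls, the change was -0.88 with an adjusted p of 0.0241. The strongest peak, chr3:133534191-133534391, had 229 ± 17.6 and 257 ± 39.9 scaled reads (adjusted p = 0.393).

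Tet3, the dioxygenase known for its part in the zygote, spans chr6:83362373-83457208 on the minus strand and had 8 nearest peaks. Of these, 2 were called higher, both inside the gene, against 11.0% of all tested peaks. The start site nearest to both is that of Bola3, 36441 bp from chr6:83385817 and 18757 bp from chr6:83368133. At chr6:83385817-83386017 the controls read 23.5, 10.8, 15.2 and 13.2 scaled reads and the paused libraries 47.3, 39.4, 29.5 and 28.1. The lowest paused value was above the highest control, and the means differed 2.30-fold (1.18 ± 0.25, 95% interval 0.66 to 1.69, adjusted p = 0.0015). This peak was called under each of the 16 alternatives, with adjusted p up to 0.0461. At chr6:83368133-83368333 values went from 27.7, 34.6, 13.6 and 16.2 to 33.5, 41.0, 34.1 and 36.3, with the groups overlapping (0.72 ± 0.24, adjusted p = 0.0382). The second call was kept in 2 of the 8 fits that left out 1 library and had an adjusted p of 0.156 without control replicate 3. It was also lost with both edgeR fits, by DESeq2 (0.402), after TMM rescaling (0.0964) and after the loess correction (0.0852). The start-site peak, chr6:83441575-83441775 (centre 3 bp after it), was the strongest, with 275 ± 25.8 and 299 ± 26.2 scaled reads and an adjusted p of 0.477. The largest fall, at chr6:83427518-83427718, from 66.8 ± 11.0 to 56.1 ± 10.2, had an adjusted p of 0.321.

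Zfp57, the guardian of imprints, spans chr17:37001163-37010729 on the plus strand and had a single peak nearest to it, on a start site. That peak, chr17:37002442-37002642 (centre 17 bp after it), read 184, 203, 224 and 237 scaled reads in the controls and 248, 246, 295 and 349 in the paused libraries. The groups did not overlap, though the lowest paused value exceeded the highest control by less than the spread within either group. The change was 0.41 ± 0.12 (95% interval 0.18 to 0.65, adjusted p = 0.0148), or 0.31 above the median of all peaks. Without paused replicate 4 the change was 0.31 with an adjusted p of 0.115, and without control replicate 1 it was 0.35 with an adjusted p of 0.0584. TMM rescaling (0.31, adjusted p = 0.0775), the loess correction (0.21, adjusted p = 0.197) and DESeq2 (0.34, adjusted p = 0.125) also ended this call.

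**Figure D3:**
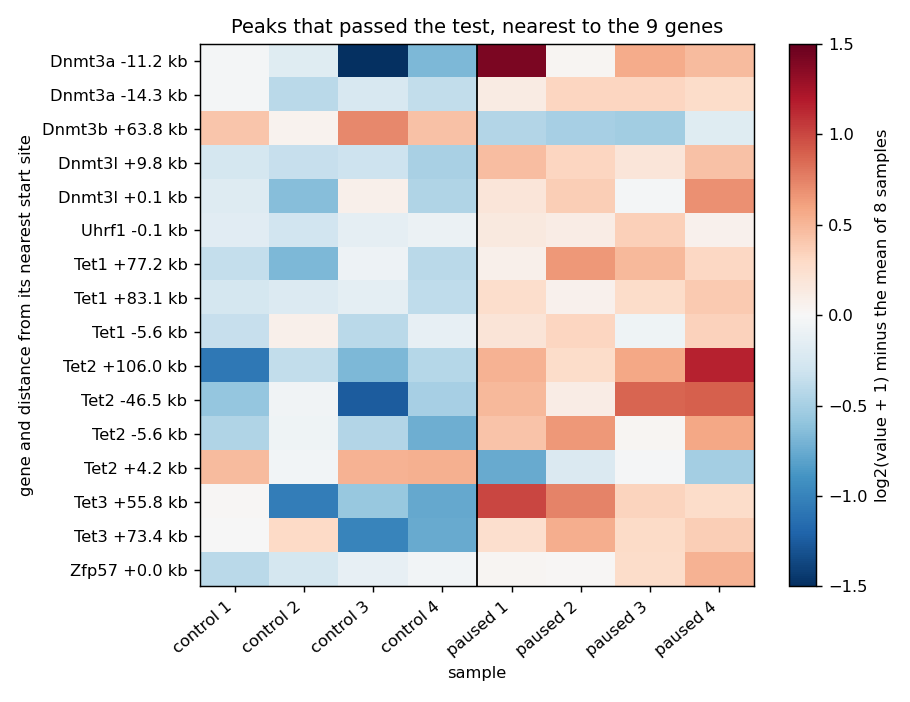
Colour map of the 16 called peaks nearest to the 9 genes in the 8 libraries, as log2(value + 1) minus the mean of the 8 libraries, with each peak named by its gene and its distance in kb from the nearest start site of that gene. The 14 peaks called higher are red in most paused libraries and the 2 called lower, near Dnmt3b and Tet2, blue; the darkest cells belong to weak peaks.

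Of the 16 called peaks nearest to the 9 genes, 6 were called in each fit that left out 1 library: chr12:3877375 at Dnmt3a, chr10:78065030 at Dnmt3l, 3 peaks of Tet2 and chr6:83385817 at Tet3. Only 4 of them (Dnmt3l, 2 of Tet2 and Tet3) passed under every alternative that tested them. These were 17 for the Dnmt3l peak and 16 for the other 3, which were too weak for the setting of at least 50 reads. None of these 4 lies on a start site.

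When all peaks nearest to a gene were added up, giving 1 value per gene and library, 6 of the 9 genes were called higher (Dnmt3l, Uhrf1, Tet1, Tet2, Tet3 and Zfp57) and none lower. The background is high at this level: 31.2% of 18182 genes were called, 29.8% higher and 1.40% lower, and the median change over all genes was 0.15. Dnmt3l had 538, 497, 520 and 506 summed scaled reads in the controls and 677, 702, 619 and 716 in the paused libraries. Its groups were far apart, with a ratio of 1.32 and a change of 0.40 ± 0.07 (95% interval 0.26 to 0.53, adjusted p = 0.000125), and it was called under each of the 16 alternatives. The sum takes in the peak that Dnmt3l shares with Aire and the peak past its 3' end, which lies nearest to the start site of Icosl. Zfp57, with 1 peak, changed by 0.41 ± 0.11 (adjusted p = 0.0050). Uhrf1 went from 421, 395, 422 and 441 to 489, 479, 580 and 478 (0.27 ± 0.08, adjusted p = 0.0104), and without paused replicate 3 the change was 0.20 with an adjusted p of 0.0558.

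The sums of the Tet genes changed alike and close to the median gene. Tet1 had 1509, 1550, 1568 and 1490 scaled reads in the controls and 1648, 1770, 1752 and 1802 in the paused libraries (0.19 ± 0.04, adjusted p = 0.0027). Tet2 went from 1159 ± 62.9 to 1321 ± 72.1 (0.19 ± 0.05, adjusted p = 0.0097) and Tet3 from 687 ± 34.4 to 771 ± 39.3 (0.17 ± 0.06, adjusted p = 0.0439). The groups of each did not overlap. Relative to the median of all genes, the 3 changes were 0.02 to 0.04, and all 3 calls were lost after TMM rescaling. The Tet3 call was also lost in 6 of the 8 fits that left out 1 library, with an adjusted p of 0.158 without control replicate 1.

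The remaining Dnmt genes did not pass the test. Dnmt3b had 617, 622, 633 and 620 in the controls and 676, 664, 647 and 690 in the paused libraries, a small shift with no overlap (0.10 ± 0.06, adjusted p = 0.203) that was at or just below 0 under the rescalings. Dnmt3a had 1021 ± 9.95 and 1009 ± 53.6 (-0.02 ± 0.05, adjusted p = 0.815), and Dnmt1 671 ± 48.3 and 649 ± 57.2 (-0.05 ± 0.07, adjusted p = 0.611). Relative to the median of all genes these were -0.04, -0.16 and -0.19, and after the loess correction on strength, which called 4.30% of all genes lower, Dnmt3a (-0.17, adjusted p = 0.0228) and Dnmt1 (-0.20, adjusted p = 0.0384) were among them. With all peaks within 50 kb summed, neighbours' peaks included, both changes were above 0 (0.08 and 0.09).

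**Figure D4:**
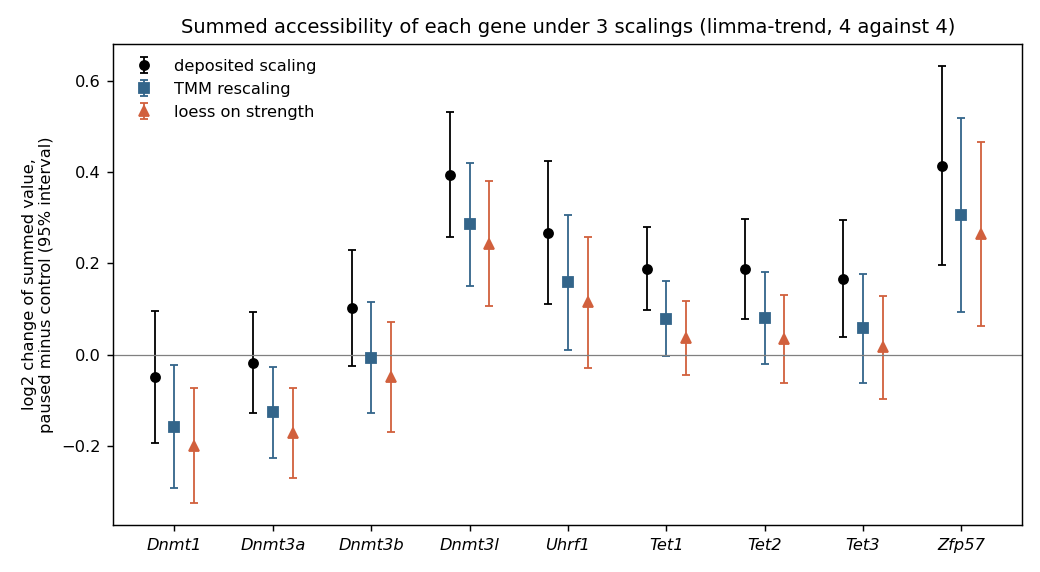
Log2 change of the summed scaled reads of each gene (paused minus control) with its 95% interval, for the deposited scaling, after TMM rescaling and after a loess correction on strength. The intervals of Dnmt3l and Zfp57 stay above 0 in all 3, while the values of Dnmt3b move from 0.10 to just below 0. Those of Dnmt1 and Dnmt3a lie lowest, with intervals below 0 after TMM rescaling and after the loess correction. The intervals are not adjusted for the number of genes.

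Peak strength was compared because the change of all peaks varied with it. Among the 116 tested peaks nearest to the 9 genes, 20 had a mean of at least 100 scaled reads, and 3 of these were called (15.0%, against 20.0% of all peaks of that strength), with the same median of 0.20. Between 30 and 100 scaled reads 6 of 39 were called (15.4% against 17.3%), with a median of 0.08 against 0.13. Below 30, 5 of 57 were called higher and 2 lower (12.3% against 8.39%), with medians of 0.03 and -0.04. The 2 called falls had means of 16.9 and 23.2 scaled reads, and the 4 called rises of more than 1 on the log2 scale had means of 14.6 to 37.5.

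**Figure D5:**
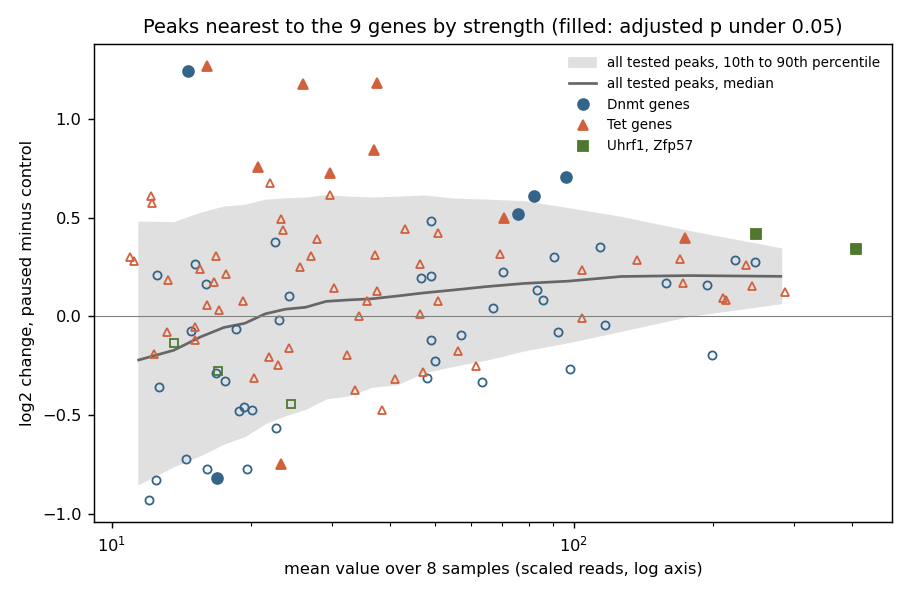
Log2 change of the tested peaks nearest to the 9 genes against their mean over the 8 libraries (log axis), with the median and the 10th to 90th percentile of all tested peaks in 20 bins of strength. Most of the peaks lie within the grey band, and most of the called peaks (filled) lie near or beyond its edges.

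Among the neighbours' peaks, 1 was called under every alternative, next to Zfp57. Zfp57 lies in the cluster of major histocompatibility genes on chromosome 17. Of its 21 tested neighbouring peaks, 3 were called higher, against 11.0% of all tested peaks. The peak chr17:36997309-36997509, 3754 bp before Zfp57 and nearest to H2-M5, a class I-like gene, read 143, 149, 174 and 173 scaled reads in the controls and 221, 238, 262 and 243 in the paused libraries. The groups were well apart (0.59 ± 0.11, adjusted p = 0.000437), and the peak was called under each of the 17 alternatives. The next, chr17:36973333-36973533 near 2410137M14Rik, went from 193 ± 11.5 to 266 ± 39.5 (0.45 ± 0.11, adjusted p = 0.0066). That call was lost without paused replicate 4 (adjusted p = 0.0514), by DESeq2 (0.0729) and after the loess correction (0.144). Of the 8 peaks near Commd7 beside Dnmt3b, chr2:153622658-153622858 rose from 97.1, 93.2, 76.2 and 94.1 to 135, 145, 126 and 127 (0.56 ± 0.13, adjusted p = 0.0028) and was called in each fit that left out 1 library. DESeq2 (0.43, adjusted p = 0.0786) and the loess correction (0.37, adjusted p = 0.0636) ended this call.

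The other calls at neighbours were less stable. Near Dnmt3l, a peak nearest to Icosl, which encodes a ligand of T cell costimulation, rose by 0.82 ± 0.24 (chr10:78074976-78075176, adjusted p = 0.0164), and 1 nearest to Aire, the regulator of self-antigen expression, by 0.61 ± 0.20 (chr10:78038057-78038257, adjusted p = 0.0317). Near Uhrf1, a peak of the histone demethylase gene Kdm4b rose from 94.98 ± 6.93 to 125 ± 5.05 scaled reads (chr17:56333084-56333284, adjusted p = 0.0298), and a weak one near Fem1a fell from 14.8 ± 1.89 to 6.44 ± 2.31 (chr17:56262934-56263134, -1.13 ± 0.37, adjusted p = 0.0339). Near Dnmt3a the peak chr12:3781573-3781773, nearest to Dtnb, rose from 218 ± 15.6 to 281 ± 18.8 (adjusted p = 0.0174), and near Dnmt1 the start-site peak of Ppan, chr9:20888118-20888318, from 248 ± 17.8 to 311 ± 37.4 (adjusted p = 0.0446). Each of these 6 calls was lost by DESeq2 and in some fit that left out 1 library, and those near Aire, Kdm4b, Dtnb and Ppan also after TMM rescaling. The adjusted p reached 0.0974 for Icosl and 0.0817 for Dtnb (both without paused replicate 4), 0.100 for Aire (without paused replicate 1), 0.0695 for Kdm4b (without control replicate 2), 0.0954 for Fem1a (without control replicate 4) and 0.163 for Ppan (without paused replicate 3). No peak nearer to another gene was called around Tet1 or Tet3.

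In the authors' deposited table, 24 of the 238 peaks had an FDR under 0.05, 23 higher and 1 lower, against 11.0% of all peaks (9.19% higher and 1.80% lower). Of these 24, 22 were also called here. The lower one was chr9:20919673-20919873 inside Dnmt1 (log2 fold -0.43, FDR 0.0456), which was not called in the main test here. The 3 peaks called lower here had an authors' FDR above 0.05. It was 0.0854 at chr2:153713110 near Dnmt3b, 0.0535 at chr3:133540122 of Tet2 and 0.0581 at chr17:56262934 near Fem1a. In the authors' deposited table the peak past Dnmt3l had a log2 fold of 0.58 and an FDR of 0.000103, and the peak before Tet2 at chr3:133590800 a log2 fold of 0.91 and an FDR of 6.2e-05.

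Beyond the 9 genes, 33 further genes of the methylation pathway were listed in 4 groups: partners and recruiters of the enzymes, readers of methylated DNA, base excision and repair, and enzymes of the methyl donor and of the cofactor of the Tet proteins. Of the 211 tested peaks nearest to them, 19 were called higher and 3 lower (10.4%, against 13.9% of all tested peaks, 11.0% higher and 2.91% lower), with a median of 0.06 against 0.10. The partners had 9 rises and 1 fall among 90 tested peaks, the readers 4 rises among 45, base excision and repair 1 fall among 38, and the donor and cofactor enzymes 6 rises and 1 fall among 38. In the first group, the peak chr6:122624605-122624805 nearest to Dppa3, whose product keeps Uhrf1 from DNA, went from 148 ± 27.1 to 221 ± 31.7 scaled reads (0.59 ± 0.13, adjusted p = 0.0019). Among readers, chr9:96705672-96705872 in the surroundings of Zbtb38 went from 95.6 ± 12.02 to 150 ± 24.3 (0.64 ± 0.13, adjusted p = 0.0011). In the repair group, a weak peak of Tdg, the glycosylase that excises oxidised methylcytosine, fell from 20.5 ± 1.25 to 10.7 ± 2.65 (chr10:82634240-82634440, -0.90 ± 0.30, adjusted p = 0.0353), and the call was lost in 7 of the 8 fits that left out 1 library (adjusted p up to 0.108, without control replicate 1).

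The largest fall in the list was at Ahcy, which clears the product of methyl transfer. At chr2:155057045-155057245 the controls read 25.9, 33.4, 25.4 and 23.5 scaled reads and the paused libraries 10.4, 7.89, 6.21 and 10.5. The lowest control stood far above the highest paused library, and the change was -1.54 ± 0.29 (95% interval -2.13 to -0.95, adjusted p = 0.000364). In the same group, 5 of the 6 rises were nearest to Idh2, which makes the Tet cofactor in mitochondria. Summed by gene, 12 of the 33 genes were called higher and none lower, against 29.8% and 1.40% of all genes, with a median of 0.14 against 0.15 for all genes. The largest of these were Setdb1 (0.41), the histone methyltransferase that acts with Zfp57 and Trim28, Idh2 (0.36) and Cdca7 (0.31), a partner of the remodeller Hells.

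For each of the 9 genes, the gene with the most similar pattern of summed values over the 8 libraries was noted as a description, since all libraries share the group difference and their scaling factor. Each r is also the highest among the 18182 genes over only 8 libraries, so that the choice itself favours high values. Pearson's r was highest for Uhrf1 with Bmp8a (0.995) and Tet2 with Mfsd13b (0.995), and lowest for Dnmt3a with Nup93 (0.948). Between these lay Tet3 with Faim (0.992), Tet1 with Atg14 (0.992), Dnmt3l with Acsl6 (0.990), Zfp57 with Taf4b (0.989), Dnmt3b with Psg25 (0.978) and Dnmt1 with Gm20604 (0.976).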

How the data were processed

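Values were read from 1 deposited table of 134407 peaks shared by 4 control and 4 paused libraries, whose columns were matched to samples by the library names in the labels; 0 columns were left unused. Per the submitters' processing notes, FastQC, Trim Galore, Bowtie2 2.4.1, MACS3 3.0.3, DiffBind 3.16.0 and build mm10 were used; filters and any shift of reads for Tn5 are not given in the sources used here. The per-library signal deposited by the authors is reads per peak divided by 1 factor per library, as 100% of values were whole multiples of 1 step within 0.006. The log2 concentrations and fold and the p-value and FDR columns are, per the file headers, the authors' own comparison.

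The main test was limma-trend (limma 3.58.1, R 4.3.3) on log2(value + 1) over the 127402 peaks with a mean of at least 10, without covariates. At gene level, values were summed over the peaks inside a gene or nearest to it within 50 kb, for 18182 genes. A log2(value + 1) difference understates the change of weak peaks. Alternatives were edgeR 4.0.16 (quasi-likelihood) and DESeq2 1.42.0 on the recovered reads, limma-trend after TMM rescaling or loess correction (span 0.3), a pseudocount of 0.1, no filter, a mean of at least 50 reads, the replicate block, 1 library left out, and other peak sets. On the recovered reads edgeR called 16142 peaks with TMM and 21046 with the deposited factors. On simulated reads of single peaks, limma-trend, its loess and replicate-block versions, edgeR with known library factors and DESeq2 were tested. TMM scaling, gene sums, the recovery of reads, the assignment of peaks to genes and left-out fits were not.

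Genes and start sites came from RefSeq tables of GRCm38.p6. A peak lay within 1 kb of 54.2% of 32851 start sites, against 17.6% and 17.3% after shifts of 50000 bp, so coordinates were read as that build; exons and introns were not analysed here. For each gene the text names the peak nearest to a start site, the strongest peak, called peaks nearest to it (at most 4), the largest rise and fall, and at most 2 called peaks per gene nearer to a neighbour. The 9 genes, the list of 33 and the markers were chosen with earlier results of these data known. A peak with 0 reads allows up to 3 reads, a value of 1.04 in the deepest and 5.08 in the shallowest library, for counting error only, as PCR copies count as reads.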

Additional observations from a re-analysis of the deposited data

Results flagged for a closer look

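In 4 of 102 groups of 4 libraries, 1 library lay apart from the other 3 by more than Dixon's critical value for a group of that size, which chance alone gives in about 1 of 20 groups. Paused replicate 3 had 366.18 scaled reads at the Ppan start-site peak near Dnmt1 (chr9:20888118), against 287 to 299 in the other paused libraries. The same library had 580.3 summed scaled reads for Uhrf1, against 478 to 489. Control replicate 3, the shallowest library, had 257.38 at the Tet1 start-site peak (chr10:62887241), against 186 to 195. Control replicate 2 had 21.5 at the weak Tet2 peak chr3:133540122, which was called lower, against 31.1 to 32.3. Without the library concerned, the changes were 0.24 at the Ppan peak (adjusted p = 0.163, called with all libraries), 0.20 for summed Uhrf1 (adjusted p = 0.0558, called with all libraries), 0.19 at the Tet1 peak (not called either way) and -0.88 at the Tet2 peak (adjusted p = 0.0241).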

How the results depend on the processing

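The 25 called peaks named in the text kept their direction under each alternative that tested them, but not always their call: 24 were called by edgeR with the deposited factors, 16 by edgeR with TMM, 14 after TMM rescaling, 9 after loess correction, 5 by DESeq2 and 11 to 21 with 1 library left out, while all 25 were called with a pseudocount of 0.1, without a filter and with a replicate block. Among the 231 peaks around the 9 genes the higher and lower calls numbered 15 and 12 by edgeR with TMM (median log2 change -0.019), 27 and 6 with the deposited factors, 5 and 0 by DESeq2 (-0.020), 12 and 6 after TMM rescaling (-0.017), and 9 and 6 after loess correction (-0.024). At a mean of at least 50 reads, a setting that tested only part of the 231, they were 20 and 0 (0.17). It kept 20 of the 47 tested peaks nearest to the Dnmt genes and 16 of the 64 nearest to the Tet genes. Over the 116 tested nearest peaks the calls were 14 and 2, and over the peaks within 10 kb, which are fewer than 231, 17 and 1. With 1 library left out they were 12 to 25 and 0 to 3. For the 33 other genes they were 12 and 9, 26 and 4, 3 and 1, 9 and 7, 6 and 6, and 15 and 1 in the same order of settings from edgeR with TMM to the mean of at least 50 reads, and 9 to 19 and 1 to 5 with 1 library left out. Of all tested peaks, edgeR called 7.13% higher and 5.54% lower with TMM, and 12.9% and 3.63% with the deposited factors. DESeq2 called 3.06% and 1.49%, TMM rescaling 5.75% and 4.24%, and loess correction 5.11% and 3.48%. At a mean of at least 50 reads the shares were 21.6% and 1.76% of 44882 peaks. The counts given above for that setting are likewise of fewer peaks, around the 9 genes and around the 33. With 1 library left out they were 7.05% to 9.96% and 1.82% to 3.04%.

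Of the summed changes, that of Uhrf1 was 0.16 by edgeR with TMM, 0.12 by DESeq2, 0.16 after TMM rescaling and 0.11 after loess correction, and 0.20 to 0.29 with 1 library left out. In the same order Tet1 had 0.081, 0.040, 0.079 and 0.036, Tet2 0.086, 0.044, 0.079 and 0.035, and Tet3 0.069, 0.027, 0.058 and 0.016, with 0.13 to 0.19 for Tet3 with 1 library left out. None of the values under these 4 settings passed the threshold, while with 1 library left out Tet1 and Tet2 passed in 8 of 8 fits, Uhrf1 in 7 and Tet3 in 2. Zfp57 passed by edgeR with TMM but not by DESeq2 (0.30), after TMM rescaling (0.31) or after loess correction (0.26). Dnmt3b was -0.000776, -0.044, -0.0066 and -0.049 in that order, against 0.10. Dnmt1 was -0.20 and Dnmt3a -0.17 after loess correction, and both passed; with all peaks within 50 kb summed they were 0.089 and 0.077, and Dnmt3a ranged from -0.038 to 0.020 with 1 library left out. The change at the Dnmt3a peak chr12:3806259 was -0.044 by edgeR with TMM, -0.038 by DESeq2, -0.023 after TMM rescaling, -0.097 after loess correction and -0.0089 (without paused replicate 3) to 0.15 with 1 library left out. At the Tet1 peak chr10:62887241 it was -0.019, -0.023, -0.028 and -0.12 under the first 4 of these. After loess correction it was also below 0 at chr2:153643129 (-0.042) and chr2:153650129 (-0.034) of Dnmt3b, chr3:133534191 of Tet2 (-0.050) and chr6:83441575 of Tet3 (-0.082). With 1 library left out, chr12:3825795 of Dnmt3a ranged from -0.13 to 0.0097 and chr10:78052040 of Dnmt3l from -0.12 to 0.11. Beyond the rescaling itself and the smaller number of libraries, the cause was not tested.

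Deviations of libraries with the same replicate number correlated weakly, by 0.079, 0.0358, 0.1328 and 0.0395. For libraries with different numbers the values were -0.105 to 0.0703. Whether replicate numbers pair the libraries cannot be told from these values, and the labels state no pairing. With a replicate block, 33 peaks around the 9 genes were called higher and 5 lower, and 28 and 5 around the 33 other genes. Of all tested peaks 13.6% were then called higher and 3.63% lower. Depth limits the weak peaks most, since a value near 10 rests on about 6 reads in the shallowest library.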
